A study of Mus musculus with 7 samples.

Results

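A set of 10 genes of the fibroblast growth factor (FGF) pathway were examined for binding of the POU-domain transcription factors Oct1 (gene Pou2f1) and Oct4 (gene Pou5f1) in mouse embryonic stem cells (ESCs) and during their differentiation towards mesoderm. The 10 genes, of 21887 protein-coding genes in the table used, were chosen by name for their place in the pathway, with earlier results of these data known. They comprise 2 ligands (Fgf4, Fgf5), 2 receptors (Fgfr1, Fgfr2), 2 transcription factors (Etv4, Etv5) and 4 feedback inhibitors (Spry2, Spry4, Dusp6, Spred1). For each gene, every peak inside it or up to 10 kb away, and then up to 50 kb away, was read from 4 peak lists with its rank by score. All samples were of parental genotype. The groups were undifferentiated ESCs, profiled for Oct1 and for Oct4, and cells at day 3 and at day 6 of mesodermal differentiation, profiled for Oct1, with 1 chromatin immunoprecipitation (ChIP-seq) library each and the same antibody for the 3 Oct1 samples. Differentiation used N2B27 medium with Bmp4 for 2 days and then a DMEM-based medium with Rspo3 and the BMP receptor inhibitor LDN-193189 for 4 days. The labels do not say how many cultures or clones the parental cells stand for, and the lists hold no expression values, so the labelled cell types were not checked against markers. The 3 input samples and the conditional knockout and retinoic acid arms were not analysed here.

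FGF ligands bind receptor tyrosine kinases of the Fgfr family, which signal through Grb2, Sos and Ras to the kinase ERK. ERK switches on the ETS factors Etv4 and Etv5 and a set of inhibitors that act back on the same route. In ESCs, autocrine Fgf4 is known as the signal that readies cells to leave the naive state, and FGF signalling is needed later for mesoderm to form and for the presomitic mesoderm to stay immature.

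Etv5 carried the strongest Oct1 peaks of the 10 genes, and at its start the same site was listed for Oct1 in ESCs, at day 3 and at day 6. The 4 feedback inhibitors each had a day 6 Oct1 peak within 1 kb of a gene end, and none of them had an ESC peak there; over all protein-coding genes the shares with such a peak were 30.5% at day 6, 9.85% for ESC Oct1 and 11.1% for ESC Oct4. The 1 kb window was chosen after the data were seen, and within 2 kb Spry4 had an ESC Oct4 peak, 1387 bp from its nearer end. Of these 4 day 6 peaks only that of Spry4 was in the upper 50% of its list by score, and it also overlapped the adjoining gene Arhgap26. Fgf4 lay among 9 Oct1 and 10 Oct4 peaks in ESCs within 50 kb, and it was the nearest protein-coding gene to 3 and 2 of them. In that window it had no day 3 peak, which 41.5% of protein-coding genes had, and 1 day 6 peak at 49486 bp. Fgf5 had no peak within 50 kb in any of the 4 lists.

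The sequences shown are the 250 bases before the annotated start of the 3 genes whose start region lay under a day 6 Oct1 peak, since these are the promoters to which the binding data refer. The table gives a second start for Etv5, whose window (chr16:22438369-22438618) lay under no peak in any list and is not shown. They were read from RefSeq (GRCm38.p6), which gave promoters for 7 of the 10 genes, not for Fgfr1, Etv4 and Spry4. Each is written 5′ to 3′ on the strand of its gene, and capitals mark a stretch that differs from the octamer ATGCAAAT, the sequence bound by POU factors, or from its reverse complement ATTTGCAT at no more than 1 base. The Etv5 window is chr16:22439571-22439820 (minus strand), the Spry2 window chr14:105896820-105897069 (minus strand) and the Spred1 window chr2:117120821-117121070 (plus strand).
Etv5: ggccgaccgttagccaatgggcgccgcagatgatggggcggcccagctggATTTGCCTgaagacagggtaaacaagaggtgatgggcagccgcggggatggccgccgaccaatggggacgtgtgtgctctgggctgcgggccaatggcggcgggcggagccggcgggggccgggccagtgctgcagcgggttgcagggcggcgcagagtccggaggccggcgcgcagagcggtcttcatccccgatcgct
Spry2: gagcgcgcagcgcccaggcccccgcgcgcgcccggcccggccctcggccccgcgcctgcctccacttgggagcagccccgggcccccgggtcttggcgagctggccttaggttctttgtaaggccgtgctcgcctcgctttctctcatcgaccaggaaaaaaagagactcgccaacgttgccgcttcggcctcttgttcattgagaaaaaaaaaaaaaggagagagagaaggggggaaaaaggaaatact
Spred1: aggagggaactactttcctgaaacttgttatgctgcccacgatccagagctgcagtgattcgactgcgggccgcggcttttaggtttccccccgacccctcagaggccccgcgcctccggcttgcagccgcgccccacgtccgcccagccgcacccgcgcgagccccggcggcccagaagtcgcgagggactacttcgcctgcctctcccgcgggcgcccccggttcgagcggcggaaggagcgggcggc

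The day 3 and day 6 Oct1 peaks of Etv5 covered all 250 bases of the window shown, and the ESC Oct1 peak covered 230 of them. The day 6 peak of Spred1 covered all 250 bases, and that of Spry2 covered 149. No window held the exact octamer on either strand, which 1.60% of the 32851 promoters in the table did. The Etv5 window held 1 match with a single difference, its first base at position -200 from the gene start, written T2G with positions counted from 1 at the 5′ end of ATGCAAAT (AGGCAAAT on that strand). Such a match was found in 16.6% of all promoters, so it is a frequent feature. CAGAC, a short sequence bound by Smad proteins, was in none of the members' windows and in 42.2% of promoters (both strands). Etv5 held 3 copies of CCAAT on either strand, a number that 2.79% of promoters reached or passed, and Spry2 and Spred1 held none. Of the members whose windows are not shown, Fgf4 and Dusp6 held 1 copy each, and Fgf5 and Fgfr2 held none. The window of the second Etv5 start held 1 copy of CCAAT and no match to the octamer within a single difference. CCAAT was added after the sequences had been read, and the count of 3 was taken from Etv5. The share of 2.79% is therefore a description and no test. The windows of Etv5 (71.2% G and C), Spred1 (70.8%) and Spry2 (62.4%) were richer in G and C than the median promoter (52.4%, quartiles 45.2% to 61.2%). So were windows under no peak in any list, those of Fgf4 (71.2%), Fgf5 (70.8%), Dusp6 (56.4%) and the second Etv5 start (62%). That of Fgfr2 (44%), also under no peak, was not. Richness in G and C was thus not particular to the windows under a peak.

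The lists differed in length, at 17709 peaks for ESC Oct1, 22817 for ESC Oct4, 4867 for day 3 and 7758 for day 6. The score is the authors' own whole number per peak, with no stated unit. It is used here only as a rank (1 for the highest score) and as a percentile within its own list, its place from the lowest score upwards as a share of that list, where peaks with the same score take the mean of their places. With 1 library per group there is no replicate error and no test between groups. Depth and the threshold of the peak caller are not known, so a gene without a peak is not shown to be unbound.

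Within 10 kb, 5 of the 10 genes had an ESC Oct1 peak, where 35.2% of all protein-coding genes did. For ESC Oct4 the number was also 5, against 40.2% of all genes. At day 3 it was 5, against 24.6%, and at day 6 it was 6, against 41.5%. Among the 15483 protein-coding genes within the members' range of length (3860 to 104358 bp), the shares were 38.1%, 43.4%, 27.0% and 46.7% in the same order. In each list the members' count lay somewhat above the background, which for 10 genes is not a result about the members. Within 50 kb, the numbers were 8 for ESC Oct1 (58.7% of all genes), 6 for ESC Oct4 (62.5%), 5 at day 3 (41.5%) and 8 at day 6 (57.9%). In the members' range of length these shares were 63.6%, 66.9%, 46.0% and 64.7%, so the counts for ESC Oct4 and day 3 were near the background.

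**Figure D1:**
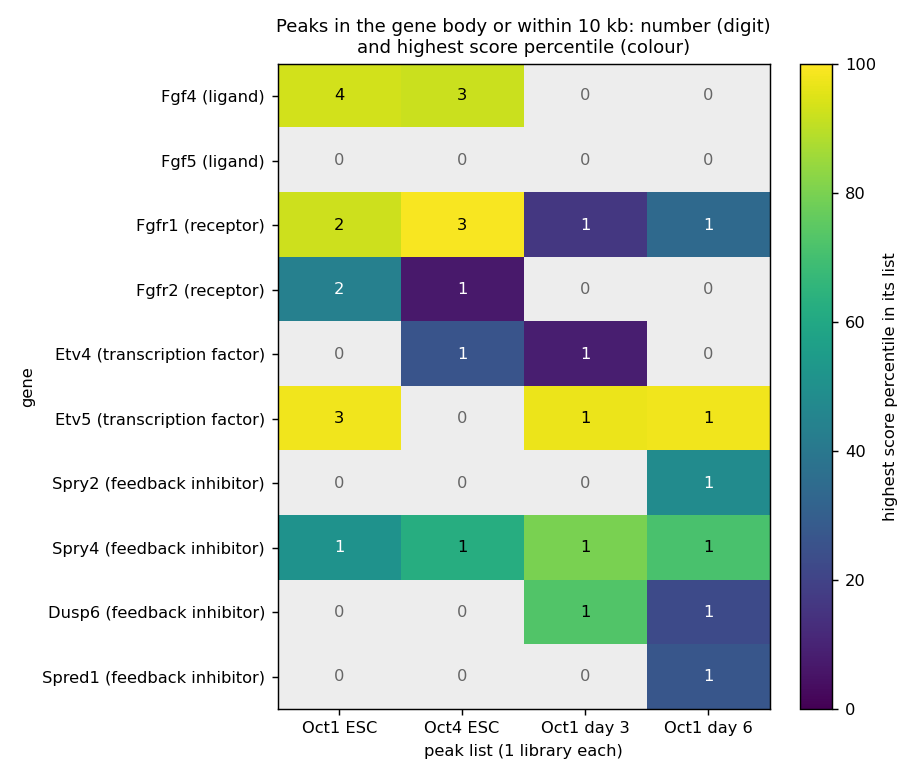
Number of peaks inside the gene or up to 10 kb away (digit in each cell) and their highest score percentile (colour scale, 0 to 100) for the 10 genes (rows) in the 4 peak lists (columns, 1 library each); grey cells hold no peak. Etv5 is above percentile 96 in all 3 Oct1 lists and empty for Oct4, Fgf4 has peaks only in the ESC lists, and Fgf5 is empty throughout.

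Of the 2 ligands, Fgf4 (gene ID 14175; chromosome 7, 144861386 to 144865245, plus strand) was surrounded by peaks in ESCs. Its gene body held none in any list, although an enhancer bound by Oct4 and Sox2 just after its coding sequence is a textbook example of such a site. The nearest peak was an ESC Oct1 peak 1946 bp beyond the downstream end of the gene (144867191 to 144867870, score 395, rank 1229, percentile 93.0), which overlapped no Oct4 peak. A further pair of downstream sites, 5666 bp and 7366 bp from the gene, was listed for both factors. At the first of these the Oct4 score ranked 1898 (percentile 91.7) and the Oct1 score 11133 (percentile 36.7). At the second the ranks were 2200 for Oct4 (percentile 90.3) and 3159 for Oct1 (percentile 82.1).

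Upstream of Fgf4, a shared site lay just inside the 10 kb limit, with the Oct1 peak 9696 bp and the Oct4 peak 9746 bp from the gene. It had rank 2487 for Oct1 (percentile 85.6) and 1843 for Oct4 (percentile 91.9). The first peak outside the limit was an Oct4 peak at 11126 bp (percentile 52.7). Within 50 kb of Fgf4 there were 9 Oct1 peaks, a number that 2.94% of protein-coding genes reached or passed, and 10 Oct4 peaks, which 4.85% reached or passed. Of the 9 Oct1 peaks, 7 overlapped an Oct4 peak. The FGF genes Fgf3 and Fgf15 lie to either side, and Fgf4 was the nearest protein-coding gene for only 3 of the 9 Oct1 and 2 of the 10 Oct4 peaks, so most of this cluster could be counted for any of the 3 genes. After differentiation the only listed peak was at day 6, 49486 bp away, and it overlapped the gene LTO1 (score 1085, rank 1421).

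Fgf5 (gene ID 14176; chromosome 5, 98254184 to 98277033, plus strand) is the ligand used as a marker of the primed epiblast state that follows naive pluripotency. No list had a peak in its body or within 50 kb. The same held for 22.4% of protein-coding genes, and 36.5% lacked a peak within 10 kb in all 4 lists.

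Among the receptors, Fgfr1 (gene ID 14182; chromosome 8, 25518759 to 25575718), the main FGF receptor of pluripotent cells, had a peak within 10 kb in all 4 lists. The same held for 9.18% of protein-coding genes. All of its peaks within 10 kb were inside the gene, and the strongest lay 24292 bp to 24382 bp from the nearer gene end, in a stretch where the long noncoding RNA gene Gm31288 overlaps Fgfr1. There the Oct4 peak (25543051 to 25544080, score 514) ranked 256 of its list (percentile 98.9), the highest Oct4 rank at any of the 10 genes. The ESC Oct1 peak at the same place ranked 1311 (score 380, percentile 92.5), and a day 6 Oct1 peak overlapped both (score 342, rank 5103, percentile 34.2). At day 3 the listed peak lay beside it, 311 bp from the ESC Oct1 peak and 831 bp from the day 6 peak, with a low score (80, rank 4068, percentile 16.3). Fgfr1 was thus listed at each time, but the strict overlap joined ESC and day 6, not day 3.

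A second site inside Fgfr1 was shared by both factors in ESCs at low percentiles (19.6 for Oct1, 20.1 for Oct4) and had no later peak. Fgfr2 (gene ID 14183; chromosome 7, 130162451 to 130266808, minus strand) encodes the receptor best known from primitive endoderm and epithelia. Its peaks within 10 kb were inside the gene and weak. They comprised 2 ESC Oct1 peaks (scores 53 and 97, percentiles 9.57 and 43.7) and 1 ESC Oct4 peak that overlapped the stronger of these (score 68, percentile 6.69). Upstream of Fgfr2, Oct4 peaks at 24873 bp and 47193 bp (percentiles 59.1 and 52.7) overlapped no Oct1 peak, and no day 3 or day 6 peak was listed within 50 kb.

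**Figure D2:**
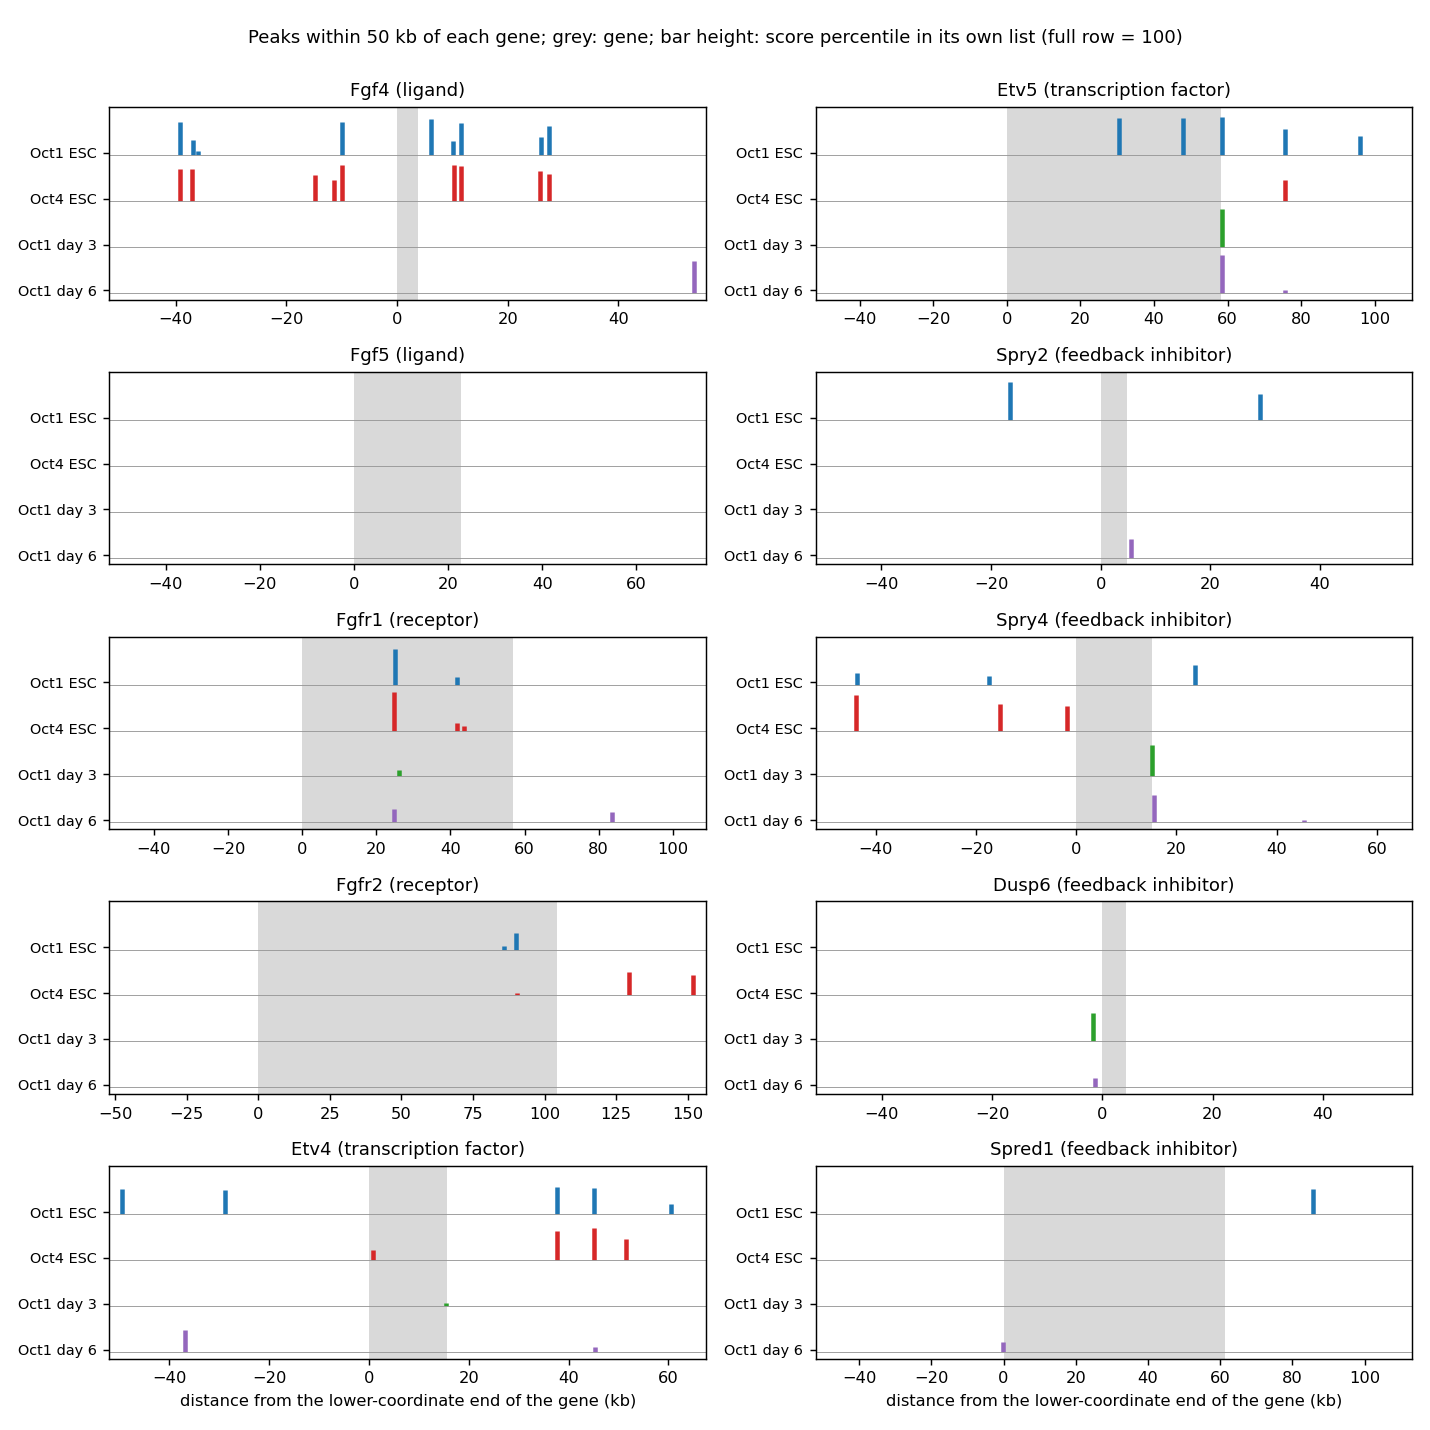
Peaks within 50 kb of each of the 10 genes, one panel per gene; the x axis is the distance from the gene's lower-coordinate end in kb, grey marks the gene, each row is a peak list and bar height is the score percentile in that list. Fgf4 shows ESC peaks on both sides and none inside, Etv5 a site at its start in the 3 Oct1 rows, and Spry2, Spry4, Dusp6 and Spred1 a later peak at or next to a gene end.

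The transcription factors Etv4 and Etv5 are closely related ETS proteins of the Pea3 group and standard readouts of FGF activity, and their peaks differed. Etv5 (gene ID 104156; chromosome 16, 22381313 to 22439570, minus strand) had 3 ESC Oct1 peaks within 10 kb and no Oct4 peak there. The first, 21 bp upstream of the gene start (22439591 to 22440110), had score 867, rank 408 and percentile 97.7. The other two lay inside the gene, 10180 bp and 27450 bp from the start, with scores of 507 and 496 (percentiles 95.2 and 95.1). At least 3 ESC Oct1 peaks at percentile 95 or higher within 10 kb were found at 8 of the 21887 protein-coding genes, Etv5 among them. Both the number of 3 and the cut at 95 were chosen after the values of Etv5 were seen. The count therefore does not measure how unusual Etv5 is.

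At the start of Etv5 the day 3 peak (22439381 to 22440190) had score 1475, rank 149 and percentile 97.0. The day 6 peak (22439361 to 22440230) had score 2420, rank 174 and percentile 97.8. The percentile was therefore between 97.0 and 97.8 at the 3 times, and under the 1 bp overlap this was the only site at the 10 genes that was listed at all 3 times. With peaks up to 1 kb apart joined, the Fgfr1 site would be another. The printed Etv5 window lies under these peaks. By contrast, the 2 peaks inside Etv5 were listed in ESCs alone. A weaker site 17041 bp upstream of Etv5, nearer to Dgkg, was listed for Oct1 (percentile 67.7) and Oct4 (percentile 54.8) in ESCs and again at day 6 (score 104, percentile 7.97). The presence of a peak within 10 kb in the 3 Oct1 lists and not for Oct4 was shared by 451 protein-coding genes (2.06%).

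Etv4 (gene ID 18612; chromosome 11, 101769747 to 101785310) had no ESC Oct1 peak within 10 kb. It had a weak Oct4 peak inside the gene, 554 bp from its lower-coordinate end (score 104, percentile 25.9). At its other end, next to the long noncoding RNA gene Gm39392, a day 3 Oct1 peak (101784981 to 101785500) had score 63, rank 4445 and percentile 8.43, and no day 6 peak was listed there. This combination of lists was found at 67 protein-coding genes (0.306%). Within 50 kb there were 5 ESC Oct1 peaks and 4 ESC Oct4 peaks, the latter with the peak inside the gene counted. A pair of these sites, 21511 bp and 29081 bp from the gene, was shared by both factors in ESCs, with Oct4 percentiles of 74.1 and 83.9 and Oct1 percentiles of 69.8 and 67.9, and the second had a day 6 Oct1 peak too (percentile 11.9).

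Of the 4 feedback inhibitors, 1 was listed within 10 kb for ESC Oct1 and 1 for ESC Oct4 (Spry4 in both cases), 2 at day 3 and all 4 at day 6. The shares of all protein-coding genes in that window were 35.2%, 40.2%, 24.6% and 41.5%, and 4 genes are too few to read a difference from. Within 1 kb of a gene end the numbers were 0, 0, 1 and 4. Over the 10 genes the numbers near a gene end were 1 for ESC Oct1 (9.85% of all protein-coding genes), 1 for ESC Oct4 (11.1%), 3 at day 3 (14.6%) and 5 at day 6 (30.5%). Among genes in the members' range of length the shares were 11.1%, 12.4%, 16.4% and 34.9%. For genes at large the share at gene ends was also highest at day 6, so the members followed the order of the lists. The use of gene ends was chosen after the data were seen.

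**Figure D3:**
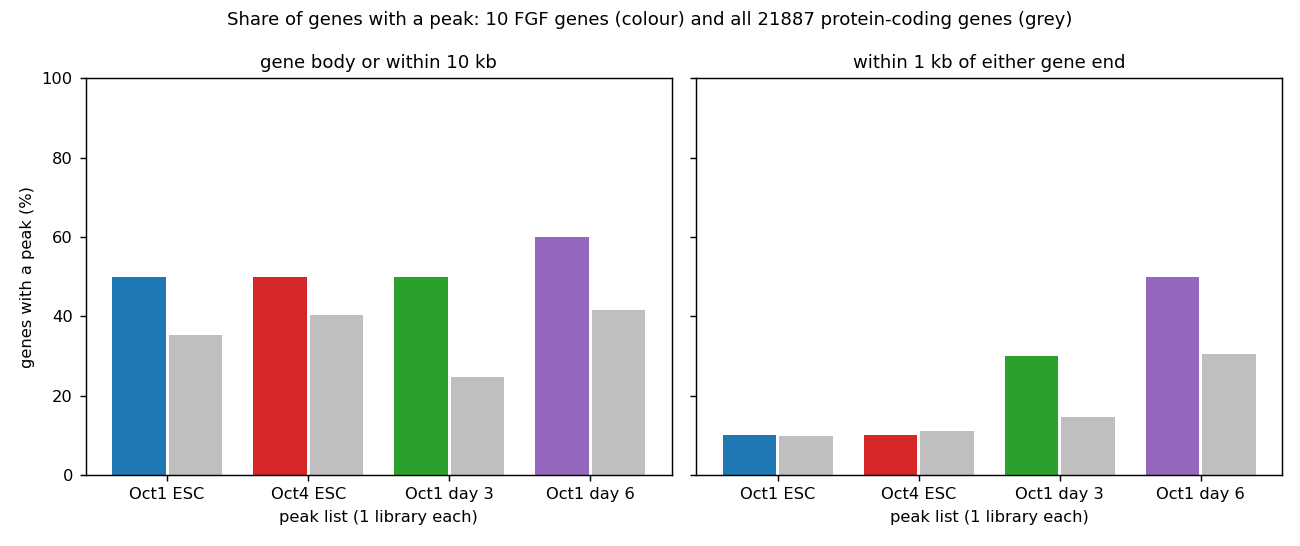
Percentage of the 10 FGF genes (coloured bars) and of all protein-coding genes (grey bars) with a peak in each list (x axis, 1 library each), for the gene body or 10 kb around it (left) and for 1 kb around either gene end (right). On the right both kinds of bar are highest at day 6, with 5 of the 10 genes against 30.5% of all genes.

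Spry4 (gene ID 24066; chromosome 18, 38586247 to 38601347), a Sprouty protein that restrains signalling from receptor tyrosine kinases to ERK, had a peak within 10 kb in all 4 lists, at different places. The day 3 peak (38601161 to 38601710) had score 405, rank 986 and percentile 79.7. The day 6 peak (38601141 to 38602200) had score 832, rank 2224 and percentile 71.3. Both spanned the higher-coordinate end of Spry4 and overlapped the adjoining gene Arhgap26, so the peak cannot be given to one of the 2 genes. The ESC peaks lay elsewhere, with an Oct1 peak 8354 bp from that end inside Arhgap26 (percentile 51.1) and an Oct4 peak 1387 bp beyond the other end (percentile 62.3). At 43477 bp an Oct4 peak with percentile 90.6 overlapped an Oct1 peak with percentile 31.1. A further day 6 peak lay 30114 bp away inside Arhgap26 (score 98, rank 7197, percentile 7.19).

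Dusp6 (gene ID 67603; chromosome 10, 99263231 to 99267489, plus strand) encodes the cytoplasmic phosphatase that removes phosphate from ERK. No ESC peak of either factor was listed within 50 kb. At day 3 an Oct1 peak lay 1441 bp upstream of the start (99261181 to 99261790, score 332, rank 1317, percentile 72.9). At day 6 an overlapping peak lay 941 bp upstream (99261511 to 99262290, score 228, rank 6023, percentile 22.3). Dusp6 was the member with peaks at both later times and none in ESCs, a pattern within 10 kb that 6.99% of protein-coding genes had.

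Spry2 (gene ID 24064; chromosome 14, 105891947 to 105896819, minus strand), another Sprouty gene, had an Oct1 peak 102 bp upstream of its start at day 6 (105896921 to 105897990, score 491, rank 3999, percentile 48.4). It had none within 50 kb at day 3 and no Oct4 peak. In ESCs its Oct1 peaks were distant, and the one 16197 bp downstream (105875151 to 105875750) was strong, with score 670, rank 584 and percentile 96.7. The other, 23922 bp upstream, had percentile 66.1. Spred1 (gene ID 114715; chromosome 2, 117121071 to 117182279, plus strand), which holds Ras in check together with neurofibromin, had a similar layout. Its day 6 peak spanned the gene start (117120481 to 117121400, score 268, rank 5688, percentile 26.6), and its ESC Oct1 peak lay 23872 bp beyond the downstream end (percentile 66.1). The pattern of a day 6 peak alone within 10 kb was shared by 9.25% of protein-coding genes.

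At the inhibitors, the day 6 peaks within 10 kb were of middling to low score in their list, from percentile 22.3 (Dusp6) to 71.3 (Spry4). With only the upper 50% of scores kept, 2 of the 10 members had a day 6 peak within 10 kb, against 25.0% of all protein-coding genes. With all scores the number was 6 of the 10, against 41.5%. Etv5 and Spry4 were the members above percentile 50. Over the members, the median percentile within 10 kb was 83.9 for the 12 ESC Oct1 peaks, 62.3 for the 9 ESC Oct4 peaks, 72.9 for the 5 day 3 peaks and 41.3 for the 6 day 6 peaks, where 50 is the middle of any list. Within 50 kb the medians were 66.1 (29 peaks), 67.8 (24 peaks), 72.9 (5 peaks) and 30.4 (12 peaks). These medians come from lists of different length and give no order between them.

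**Figure D4:**
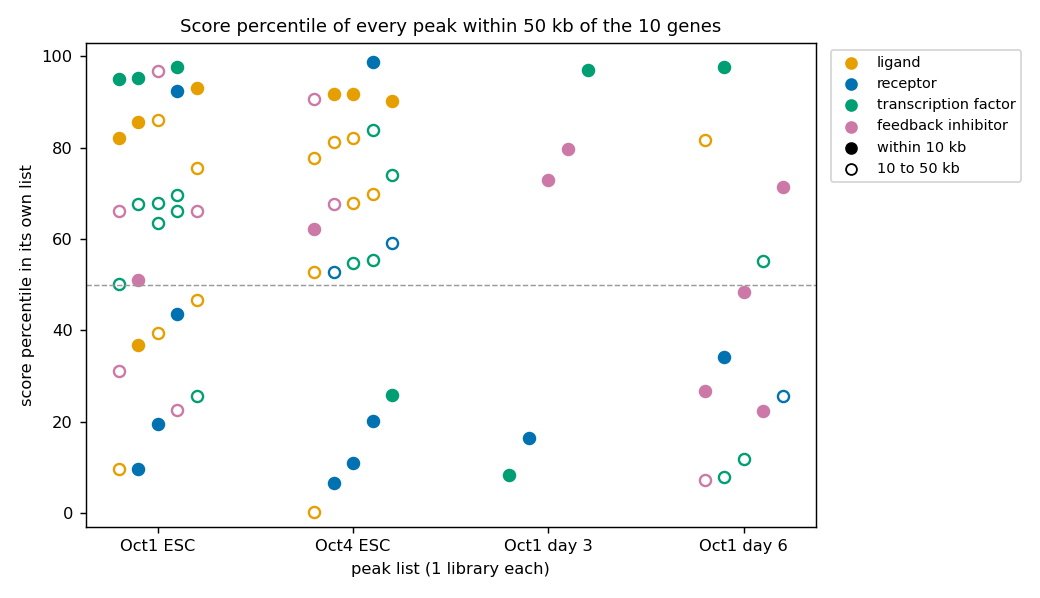
Score percentile (y axis, 0 to 100, within the peak's own list) of every peak within 50 kb of the 10 genes in each list (x axis), coloured by role; filled points lie inside the gene or up to 10 kb away, open points at 10 to 50 kb, and the dashed line marks 50. The green filled points at the top of the 3 Oct1 lists are those at Etv5, and the day 6 points lie mostly below the line.

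When peaks that overlapped by at least 1 bp were joined, the 70 peaks within 50 kb made 49 distinct sites. Of these, 32 were in 1 list, 13 in 2 lists, 4 in 3 lists and none in all 4. In ESCs alone there were 14 sites for Oct1, 10 for Oct4 and 11 for both. Sites not listed in ESCs numbered 6 at day 6 alone, 2 at day 3 alone and 2 at both times, the latter at Dusp6 and Spry4. The sites in 3 lists were the start of Etv5 (the 3 Oct1 lists) and 1 site each at Fgfr1, Etv4 and Etv5 (both ESC lists and day 6).

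These overlaps were set beside those of the full lists, with exact Clopper-Pearson 95% intervals that cover the counting of peaks only. Of the 29 ESC Oct1 peaks within 50 kb of a member, 14 (48.3%, 29.4 to 67.5) overlapped an ESC Oct4 peak, against 59.1% of the full ESC Oct1 list. Seen from Oct4, 14 of 24 (58.3%, 36.6 to 77.9) overlapped an Oct1 peak, against 46.0%. A day 3 peak overlapped 1 of the 29 (3.45%, 0.0873 to 17.8; full list 8.88%) and a day 6 peak 4 of the 29 (13.8%, 3.89 to 31.7; full list 6.66%). Neighbouring peaks of a gene are not independent, and 9 of the 29 lie around Fgf4, so the intervals are too narrow and nothing is read from them. By member, the ESC Oct1 peaks that overlapped Oct4 were 7 of 9 at Fgf4, 2 of 2 at Fgfr1, 1 of 2 at Fgfr2, 2 of 5 at Etv4, 1 of 3 at Spry4, 1 of 5 at Etv5, none of 2 at Spry2 and none of 1 at Spred1.

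The other genes of the pathway were taken from a list of 60, all of which matched the gene table. Some, such as Nf1, are longer than any member, and no shares matched for length were computed for the 60. The differences from all protein-coding genes below were not tested, and no excess is read from them. Within 10 kb, 30 of the 60 were listed for ESC Oct1, 28 for ESC Oct4, 19 at day 3 and 37 at day 6, which is 50%, 46.7%, 31.7% and 61.7% against the 35.2%, 40.2%, 24.6% and 41.5% of all protein-coding genes given above. With every list shortened to 4867 peaks the numbers were 10, 11, 19 and 32, and the shares of all protein-coding genes were 16.3%, 14.7%, 24.6% and 30.2%, also lower in ESCs than at day 3. By class, given in the order ESC Oct1, ESC Oct4, day 3 and day 6, the numbers were 10, 10, 7 and 15 of the 18 genes that relay the signal inside the cell. They were 5, 5, 6 and 10 of 12 further inhibitors, and 7, 6, 5 and 3 of 16 further ligands. The ESC peaks that count here for Fgf3 and Fgf15 are all among those already given within 50 kb of Fgf4. Of 5 further receptors and co-receptors 4, 2, 0 and 3 were listed, and of 9 downstream transcription factors and targets 4, 5, 1 and 6. No difference between classes was tested. No peak was listed in any list for 10 of the 60 (16.7%, against 36.5% of all protein-coding genes).

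Of the 60, 36 (60%) had a peak within 10 kb in at least 2 lists, against 45.7% of all protein-coding genes, and 8 (13.3%) had one in all 4, against 9.18%. Grb2, the adaptor that links activated receptors to Sos, had the highest percentile of all at day 6 (99.3, score 3678, rank 58) and reached 97.9 for ESC Oct1 and 97.7 for ESC Oct4. Nf1, the neurofibromin gene, reached 98.6 for ESC Oct4 and 82.6 at day 6. Spred2, the relative of Spred1, had 6 ESC Oct1 peaks (highest percentile 97.7) and 4 at day 3 (81.7), so its ESC peaks lay within 10 kb while those of Spred1 did not. Cbl, a ubiquitin ligase that acts on active receptors, had 3 ESC Oct1 and 4 ESC Oct4 peaks, with a highest Oct4 percentile of 94.3. The other 4 genes with peaks in all lists were the adaptor gene Shc1, the ligand gene Fgf18, the MEK gene Map2k1 and the inhibitor gene Il17rd. Etv1, the third Pea3 factor, had peaks of percentile 96.9 for Oct1 and 99.4 for Oct4 in ESCs, and one of 71.7 at day 6. Within 10 kb the ESC peaks listed at the 3 Pea3 genes therefore differed, with both factors strong at Etv1, Oct1 alone at Etv5 and a weak Oct4 peak alone at Etv4. Within 50 kb both factors were listed in ESCs at Etv4 and at Etv5 too, so this difference holds only for the narrower window.

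The genes with the pattern most like that of a member were sought by the Euclidean distance over 4 values, the highest percentile within 10 kb in each list (0 with no peak). Nearest to Etv5 were Sinhcaf (distance 1.28), Cic (1.33) and Prkrip1 (1.54). Nearest to Fgfr1 were Fem1b (3.95), Ccdc136 (7.84) and Anxa6 (8.47). Nearest to Spry4 was its neighbour Arhgap26 (9.55), which shares peaks with it, followed by Radil (9.84) and Smurf1 (11.6). With only 4 values per gene, such likeness is a description of these lists.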

How the data were processed

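Each ChIP-seq library had 1 deposited peak list of 5 columns without a header (chromosome, start, end, name, score). The score is the authors' whole number per peak, and its unit is not stated. Per the submitters' processing notes, Novoalign 3.8.2 and genome build mm10 (GRCm38) were used; the peak caller, its threshold and control are not given in the sources used here. Per the labels' protocols, chromatin was fixed with 1% formaldehyde and read as 50 bp pairs, with 100 M pairs stated. The lists hold no read counts, so the depth behind each peak is unknown, and numbers of peaks move with depth and threshold.

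Genes came from a RefSeq table (GRCm38.p6), whose coordinates are 1-based; it gives neither exons nor, for 3 members, strand, so exon and intron were not assigned. A peak was linked to a gene where it overlapped the gene widened by 10 kb or 50 kb, and lists shared a site where peaks overlapped by at least 1 bp. Ties in score share the mean percentile. Computation used Python 3.11.15, numpy 2.4.6, pandas 2.3.3 and scipy 1.17.1, with figures by matplotlib 3.10.9; the functions were tested on simulated data, where 5 of 5 planted quantities were recovered. Named genes were the 10 members and, of the other 60 pathway genes, those with a peak within 10 kb in 2 or more lists, at most 20. Neighbours of members and genes nearest by pattern are named besides. The members and lists were chosen with earlier results of these data known. No test was made, since each group has 1 library.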

Additional observations from a re-analysis of the deposited data

How the results depend on the processing

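In all, 24 counts were recomputed, giving 80 alternative values, of which 48 stayed within 1.5 times and 32 did not, 29 of these being lower. The lower ones follow from settings that keep fewer peaks or a smaller window. The order of lists is ESC Oct1, ESC Oct4, day 3, day 6, and shares are of all protein-coding genes under the same setting. With the gene body only, members with a peak within 10 kb became 3 for ESC Oct1 and 3 for ESC Oct4, and other pathway genes 18 and 15 (shares 23.9% and 28.0%). With the upper 50% of scores, members within 10 kb became 3 (ESC Oct4), 3 (day 3) and 2 (day 6), members within 50 kb 3 (day 3) and 4 (day 6), linked peaks 5, 3 and 2 (ESC Oct4, day 3, day 6), and other pathway genes 18, 17 and 11 (ESC Oct1, ESC Oct4, day 3). The shares were then 24.3%, 26.8%, 15.0% and 25.0% within 10 kb, and 27.1% (day 3) and 39.9% (day 6) within 50 kb. With every list shortened to 4867 peaks, which kept 27.5%, 21.3%, 100% and 62.7% of the lists, members within 10 kb became 3, 2 and 3 (ESC Oct1, ESC Oct4, day 6), members within 50 kb 4 (ESC Oct1) and 5 (day 6), linked peaks 7, 4 and 3 (ESC Oct1, ESC Oct4, day 6), and other pathway genes 10 and 11 in ESCs. The shares were then 16.3%, 14.7%, 24.6% and 30.2% within 10 kb, and 33.6% (ESC Oct1) and 46.0% (day 6) within 50 kb. Sites shared by ESC Oct1 and Oct4 fell from 14 to 8 with the upper 50% and to 4 with equal lists, and those shared by ESC Oct1 and day 6 from 4 to 1 in both. Joining peaks up to 1 kb apart raised ESC Oct1 sites kept at day 3 from 1 to 2 (Fgfr1 was added). Widening gene ends to 2 kb, chosen after seeing the data, raised the members from 1 to 2 in each ESC list, adding Fgf4 (1946 bp) for Oct1 and Spry4 (1387 bp) for Oct4, with shares of 12.9% and 15.6%. No paired analysis was possible because each group has 1 library. Unknown depth limits every count, and absence of a peak is not absence of binding.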
